A study of Sus scrofa with 18 samples.

Results

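This section describes how liver transcripts of female piglets (gilts) fed a soy formula differed from those of gilts suckled by the sow at postnatal day 21. It rests on 6 of the 18 arrays of the series, 3 pools of female liver RNA titled as soy formula fed and 3 titled as sow fed, chosen by those titles and fitted without the males. The piglets of the soy group received a commercial soy infant formula from day 2 to day 21, while the other group stayed with the sow. The other arrays held 3 female pools on a commercial milk (dairy) formula and 9 male pools on the same 3 diets. No genotype, breed or drug treatment is named in the labels, and how many animals made up a pool is not stated in them; the p-values therefore reflect how far pools differ, which may be less than animals do. Total RNA from frozen liver (8 ug per sample) was hybridised to a porcine Affymetrix array.

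The deposited values are linear ratios, given for each probe set in each pool. The divisor of each probe set was shared by all arrays, so ratios compare pools for 1 gene and not genes with each other. A change is the log2 difference, soy minus sow, given with its standard error, and a probe set or gene was called when its adjusted p was under 0.05 (limma, Benjamini-Hochberg over 23935 probe sets). Where a gene had several probe sets, the brightest over the 6 pools stood for it. As background, the liver makes cholesterol from acetyl units through the mevalonate pathway, and turns it into bile acids through a route that begins with CYP7A1. The genes of cholesterol synthesis share the transcription factor SREBP2, which is held inactive while sterols are plentiful. Sow milk carries cholesterol, and plant ingredients such as soy protein carry sterols of other kinds. Soy also supplies isoflavones, which bind oestrogen receptors.

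All 11 measured members of the hepatocyte marker list, among them ALB, APOA1 and TTR, had a median ratio of 1 over the 18 arrays, the value reached by 5271 of the probe sets on the array. No measured marker of skeletal or smooth muscle (0 of 7), adipocytes (0 of 4), neutrophils (0 of 8) or T and NK cells (0 of 12) had such a median. Arrays of the same diet correlated with each other at 0.975 to 0.983 across probe sets, and arrays of different diets at 0.94 to 0.965. The hybridisation spikes, which are added in fixed amounts, had mean ratios of 0.3 to 0.353 in the sow milk pools and 0.257 to 0.277 in the soy formula pools, a log2 difference of -0.29. The signal at the 3' end over that at the 5' end of 3 control transcripts was higher by 0.11 to 0.15 on the log2 scale in the soy pools. The ribosomal RNA controls differed more. A probe set for 18S rRNA had ratios of 0.818, 0.705 and 0.699 in the sow pools and of 0.165, 0.202 and 0.591 in the soy pools (-1.45), and another stood at 0.24. The probe sets for 28S rRNA stood at -0.98 and -0.29. The part of spikes, ribosomal RNA and RNA quality in the results was not tested.

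On soy formula 1697 of 23935 probe sets were called (7.09%), 910 of them higher (3.8%) and 787 lower (3.29%). By gene, 797 of 6765 were called (11.8%), 449 higher (6.64%) and 348 lower (5.14%). These shares by gene are the background for each count of list members called below. The median change over all genes was 0.00712. The large changes were mostly rises: 12 genes rose at least 8-fold and 1 fell by as much, and 24 rose and 7 fell at least 4-fold. Ratios of the 3 soy pools and the 3 sow pools did not overlap for any called probe set, and the same held for 25.1% of all probe sets tested. The count depended on having 3 pools per diet. It was 1049 without sow pool 1, 1000 without sow pool 2, 1082 without sow pool 3, 1046 without soy pool 2 and 1129 without soy pool 3. Of 156 called features chosen by the naming rules, 82 stayed past the threshold in all of 15 alternative analyses. Those 15 did not include a 1.5-fold limit, an unmoderated test, a fit without dim probe sets or a fit with 1 probe set per gene. The 1.5-fold limit and the unmoderated test each called 93 probe sets.

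Every measured gene of cholesterol synthesis rose. The list held 25 genes, of which 11 were measured, and all 11 were called higher, against 6.64% of all genes, with a median change of 3.76 and a range from 1.11 to 5.92, and all 11 were called whichever pool was left out. HMGCS1, which makes the HMG-CoA used for mevalonate, had ratios of 0.0656, 0.112 and 0.0363 in the sow pools and of 2.6, 6.34 and 3.55 in the soy pools. Every soy pool lay far above every sow pool, and the rise was 60.3-fold (5.92 ± 0.43 SE on the log2 scale, adjusted p = 0.000382). ACAT2, the thiolase at the entry of the pathway, rose by 3.84 ± 0.2, from 0.139, 0.243 and 0.175 to 2.41, 3.02 and 2.37. FDPS, which builds farnesyl diphosphate, rose by 3.91 ± 0.14, from 0.113, 0.144 and 0.115 to 1.64, 2.19 and 1.76.

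The later steps moved with the early ones. Squalene epoxidase (SQLE) stood at 0.138, 0.17 and 0.0931 on sow milk and at 2.22, 4.92 and 2.77 on soy formula, a change of 4.59 ± 0.31 (adjusted p = 0.00028). CYP51, the lanosterol demethylase, rose by 4.11 ± 0.23, the methylsterol oxidase MSMO1 by 3.76 ± 0.3 (another MSMO1 probe set stood at -0.06) and the desaturase SC5D by 3.02 ± 0.17. The squalene synthase FDFT1 rose by 2.24 and the reductase HSD17B7 by 1.67. The smallest rises in the list were those of TM7SF2 (1.27), the sterol reductase, and NSDHL (1.11), which oxidises the sterol ring. Soy pool 2 held the highest of the 3 soy ratios for HMGCS1, ACAT2, FDPS, SQLE, CYP51, MSMO1, SC5D, FDFT1 and HSD17B7.

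**Figure D1:**
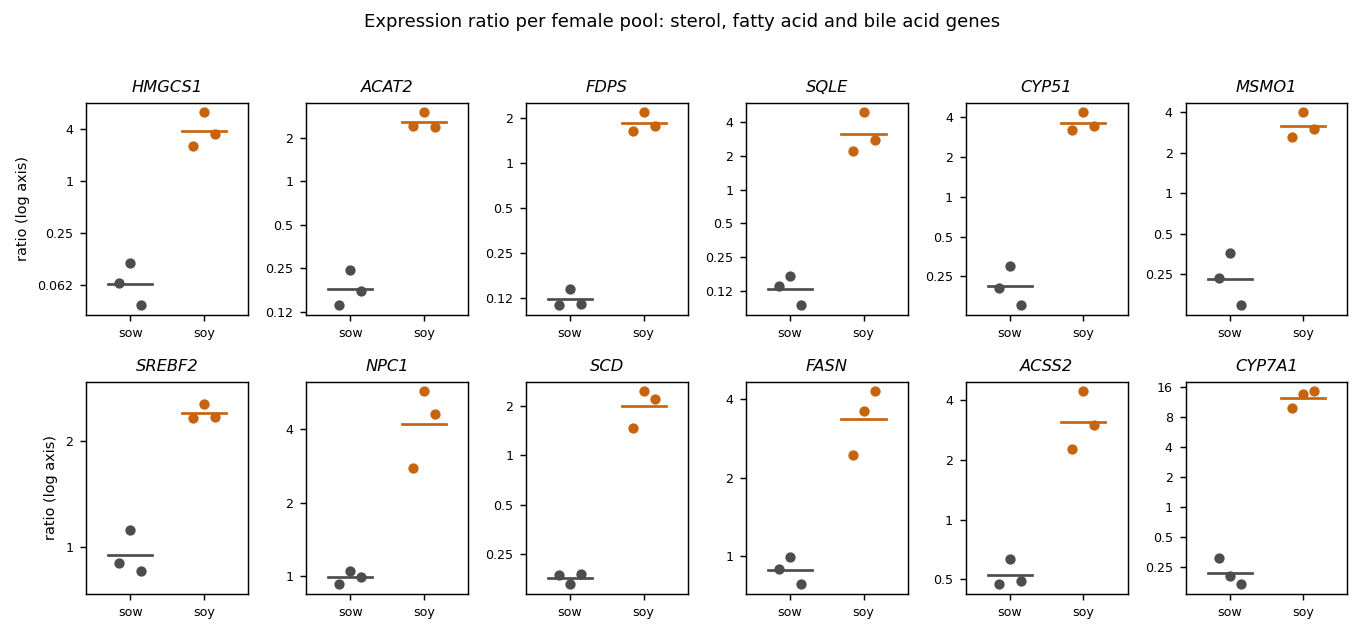
Expression ratio (log axis, no unit) of 12 genes in each of the 3 sow milk and 3 soy formula pools of females; each point is a pool and each line the mean of the log2 ratios. Sow and soy pools do not overlap in any panel, with CYP7A1 between 0.17 and 0.312 on sow milk and between 9.81 and 14.5 on soy formula.

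Of 9 measured genes of sterol sensing and cholesterol uptake, 2 rose and the others were not called, beside 6.64% of all genes called higher. Without sow pool 2, 4 of the list were called. SREBF2, which encodes SREBP2, went from 0.9, 1.12 and 0.853 to 2.32, 2.54 and 2.34, a rise of 1.33 ± 0.12 (adjusted p = 0.000966). Other SREBF2 probe sets rose by 0.98 and 1.16, and a further one stood at 0.2, not called. NPC1, which exports cholesterol from lysosomes, went from 0.923, 1.05 and 0.988 to 2.78, 5.73 and 4.63, a rise of 2.09 ± 0.23 (adjusted p = 0.00273). INSIG1, a sensor that holds SREBP in place, varied more within diets than between them, with 0.554, 1.63 and 2.97 on sow milk and 2.95, 2.04 and 1.29 on soy formula (change 0.51, adjusted p = 0.689). The change of SREBF1 was 0.28 (adjusted p = 0.441). Of the 6 measured genes of cholesterol efflux, limma called 0, and 0 had an unadjusted p under 0.05 (ABCG8 stood at 0.45, adjusted p = 0.271, and ABCA1 at 0.21).

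Of 21 measured genes of fatty acid and triglyceride synthesis, 10 were called higher, 1 lower and 10 were not called (median change 0.582), beside 6.64% of all genes called higher and 5.14% lower. Stearoyl-CoA desaturase (SCD), which makes monounsaturated fatty acids, had ratios of 0.188, 0.165 and 0.189 in sow pools and of 1.47, 2.44 and 2.19 in soy pools. The groups did not overlap, and the rise was 3.46 ± 0.18 (adjusted p = 7.64e-05). PNPLA3, a lipid droplet lipase, rose by 2.82 ± 0.18, and the desaturase FADS1, which acts on polyunsaturated fatty acids, by 2.74 ± 0.24. ACSS2, which activates acetate, rose from 0.472, 0.629 and 0.487 to 2.28, 4.44 and 3.02 (2.57 ± 0.23). Fatty acid synthase (FASN) rose by 1.92 ± 0.19 and GPAM, the acyltransferase that starts triglyceride synthesis, by 1.52 ± 0.13 (a second GPAM probe set stood at 0.2). A second probe set of FASN rose by 0.68, another by 0.73, and a further one stood at 0.0 (not called). Acetyl-CoA carboxylase ACACA (0.41) and the triglyceride-forming DGAT2 (0.18) and DGAT1 (-0.22) were not called, and the acyltransferase AGPAT1 fell by 0.45.

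CYP7A1, the rate-limiting enzyme of bile acid synthesis, had the largest rise after HMGCS1 among named genes. Its ratio was 0.312, 0.203 and 0.17 in the sow pools and 9.81, 13.7 and 14.5 in the soy pools, a 56.6-fold rise (5.82 ± 0.23, adjusted p = 3.91e-05). CYP8B1, the enzyme that directs bile acids towards cholic acid, had overlapping groups, 0.187, 0.171 and 0.181 against 0.164, 0.169 and 0.195 (change -0.03, adjusted p = 0.9). Of the 10 measured genes of bile acid synthesis and transport, 5 were called, all higher (median change 0.341), beside 6.64% of all genes. Besides CYP7A1 these were the racemase AMACR (1.08), the uptake transporter SLC10A1 (0.67), the bile salt export pump ABCB11 (0.65) and the carrier SCP2 (0.4). With a pool left out 1 to 4 list members were called, 1 without soy pool 3, 2 without soy pool 2 and 3 without sow pool 1, sow pool 2 or soy pool 1; 2 were called with the pool number as a block. A second probe set of ABCB11 stood at -0.32 and was not called. The side-chain enzyme CYP27A1 stood at 0.24, not called.

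Of 15 apolipoprotein and lipoprotein genes, 1 was called higher and 2 lower, beside 6.64% and 5.14% of all genes. The main apolipoproteins stayed close to 0 change, with APOB at -0.03, APOA2 at -0.04 and APOA1 at -0.27, none called. ANGPTL4, an inhibitor of lipoprotein lipase, rose by 0.97, the receptor VLDLR fell by 0.93 (0.02 in a second probe set, not called) and APOF fell by 0.51. Each of these 3 calls was lost in some alternative analyses, with adjusted p up to 0.094 for ANGPTL4 and 0.132 for APOF. The list held 0 calls without soy pool 1, and 1 without sow pool 1, sow pool 2 or soy pool 3. APOE stood at -0.02 by its representative probe set and fell by 1.36 by another.

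Among 23 drug-metabolising cytochromes, their receptors and partners, 5 rose and 1 fell, beside 6.64% of all genes called higher and 5.14% lower. CYP3A29, a porcine member of the CYP3A family that oxidises drugs and steroids, had ratios of 0.263, 0.425 and 0.665 on sow milk and of 3.3, 3.23 and 4.72 on soy formula. It rose 8.78-fold (3.13 ± 0.31, adjusted p = 0.00151). CYP3A46 rose from 0.516, 1.02 and 1.49 to 4.92, 4.12 and 5.15 (2.35 ± 0.33, adjusted p = 0.00692), and CYP1A1, the classic target of the aryl hydrocarbon receptor, from 0.644, 0.889 and 0.568 to 3.27, 2.24 and 5.29 (2.3 ± 0.29, adjusted p = 0.00504). The electron donor POR rose by 0.53 ± 0.08 and CYP2C33 by 0.61, while the carboxylesterase CES1 fell by 0.55. The CYP2C33 call was lost without sow pool 1, sow pool 3 or any single soy pool (adjusted p up to 0.087). That of CES1 was lost without sow pool 1, sow pool 2 or any single soy pool (up to 0.0838), and with all 9 female pools (0.141). Near-identical family members can share probes, so single CYP3A genes are uncertain: CYP3A22 stood at -0.46 and CYP3A39 at -0.01, neither called. CYP2D25 stood at 0.04 by its representative probe set and rose by 1.71 by another. CYP2E1 (-0.24), the aryl hydrocarbon receptor AHR (0.12) and the pregnane X receptor NR1I2 (-0.42) were not called.

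Conjugating and redox enzymes moved in both directions, 5 higher and 2 lower of 18, beside 6.64% and 5.14% of all genes. The glutathione transferase GSTA4 rose by 1.11 ± 0.12, the thioredoxin reductase TXNRD1 by 0.87 ± 0.1 and the microsomal transferase MGST1 by 0.86 ± 0.09; second probe sets of GSTA4 (0.0) and TXNRD1 (-0.12) were not called. The sulphotransferase SULT2A1, which acts on steroids and bile acids, fell by 0.8 ± 0.12 and MGST3 by 0.61 ± 0.09. NQO1, a standard NRF2 target, stood at 1.17 without passing the test. SOD2, the mitochondrial superoxide dismutase, rose from 1.31, 1.32 and 1.31 to 1.94, 1.93 and 1.83 (0.54 ± 0.08, adjusted p = 0.00699).

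Of 13 measured oestrogen receptor and oestrogen-responsive genes, 2 were called higher and 1 lower, beside 11.8% of all genes called; 1 was called without sow pool 2, sow pool 3 or soy pool 1. The receptor ESR1 had overlapping ratios, 0.253, 0.251 and 0.194 on sow milk and 0.268, 0.215 and 0.25 on soy formula (change 0.08 ± 0.13, adjusted p = 0.822). Angiotensinogen (AGT), made in the liver, fell from 2.17, 2.15 and 2.05 to 0.856, 0.99 and 0.937 (-1.2 ± 0.09, adjusted p = 0.000382). The oestrogen sulphotransferase SULT1E1 rose by 0.57 and the oestradiol-oxidising HSD17B2 by 0.72, and both calls were lost in some analyses without 1 pool (adjusted p up to 0.115 and 0.101 over the alternatives). The progesterone receptor PGR (-0.08) and the trefoil peptides TFF1 (0.07) and TFF3 (0.02) were not called.

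In iron metabolism the largest change was in hepcidin, the liver peptide that lowers iron release into plasma. HAMP had ratios of 0.0376, 0.0424 and 0.0436 in the sow pools and of 0.993, 0.82 and 1.01 in the soy pools, a 22.8-fold rise (4.51 ± 0.11) with the smallest adjusted p of the genes named (2.34e-06). ID1, a target of the BMP signalling that drives hepcidin, rose from 0.353, 0.561 and 0.341 to 1.45, 1.69 and 1.54 (1.94 ± 0.18, adjusted p = 0.00135). The transferrin receptor TFRC, which brings iron into cells and whose transcript is stabilised in iron-poor cells, fell from 5.35, 6.31 and 7.32 to 1.11, 0.728 and 1.12 (-2.69 ± 0.19, adjusted p = 0.000318). In all, 2 of 17 iron genes rose and 3 fell, beside 6.64% of all genes called higher and 5.14% lower. Ferritin light chain (FTL), part of the iron store, fell by 1.29 ± 0.21, though a second FTL probe set stood at 0.15 and was not called. FTH1 (-0.17), HMOX1 (-0.04) and SLC11A2 (-0.27) were not called, nor were the other BMP-responsive genes ID2 (0.13) and ID3 (-0.34).

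Of 10 genes of metallothioneins, zinc and copper, 3 fell and 0 rose, beside 5.14% of all genes called lower and 6.64% higher. MT3 fell from 2.84, 1.15 and 2.76 to 0.507, 0.332 and 0.412 (-2.34 ± 0.33, adjusted p = 0.00724). MT1A, which binds zinc and copper, fell from 1.36, 0.872 and 1.13 to 0.475, 0.567 and 0.695 (-0.94 ± 0.19, adjusted p = 0.0224). MT-2B fell by 0.77. Metallothionein probe sets can share sequence, so these are not independent genes with certainty. The calls of MT1A and MT-2B were lost without sow pool 1, soy pool 1 or soy pool 2 (MT1A also without sow pool 3), with adjusted p up to 0.066 and 0.0662. The list held 1 call without sow pool 1 or soy pool 1.

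**Figure D2:**
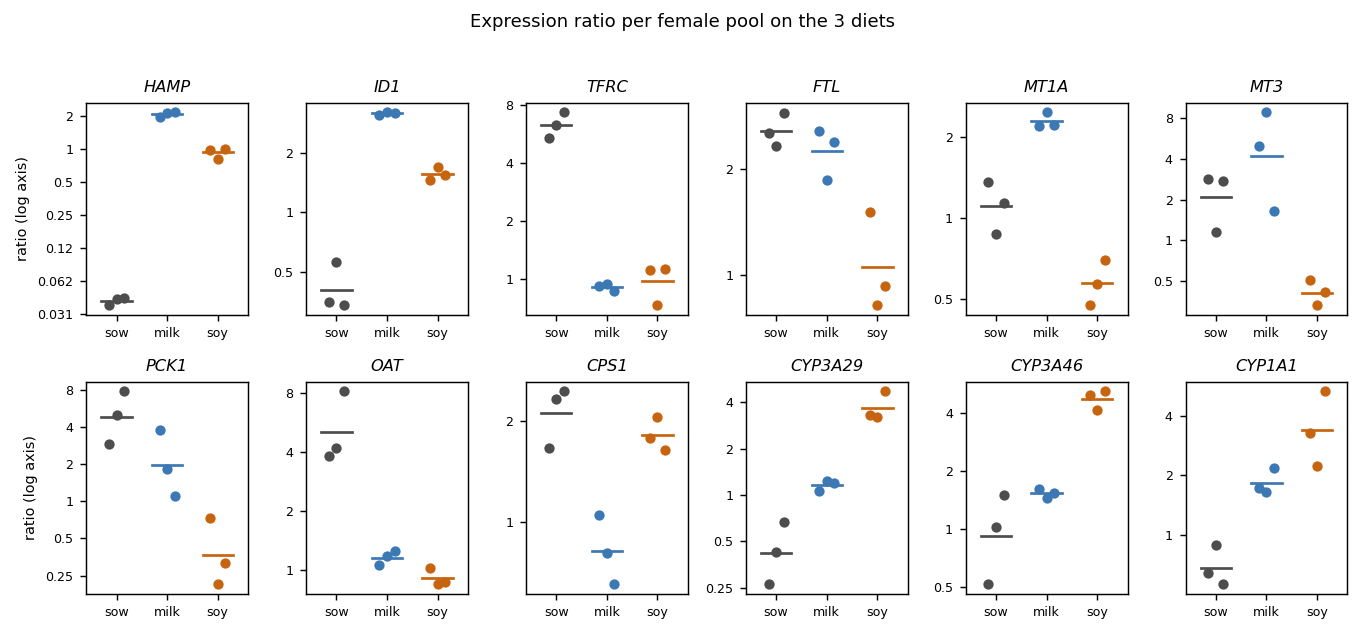
Expression ratio (log axis, no unit) of 12 genes in the female pools on sow milk, milk formula and soy formula; each point is a pool (3 per diet) and each line the mean of the log2 ratios. HAMP lies between 0.0376 and 0.0436 on sow milk, between 1.98 and 2.18 on milk formula and between 0.82 and 1.01 on soy formula.

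Phosphoenolpyruvate carboxykinase (PCK1), the enzyme that commits carbon to gluconeogenesis, had the largest fall among named genes. Its ratios were 2.9, 4.98 and 7.74 on sow milk and 0.735, 0.213 and 0.315 on soy formula, 13.1-fold lower on soy (-3.71 ± 0.47, adjusted p = 0.00504). The list of gluconeogenesis and glycogen had 3 called members of 11, all lower, beside 5.14% of all genes. FBP1 fell by 0.59 and the glucose 6-phosphate transporter SLC37A4 by 0.44. Both of those calls were lost in some analyses without 1 pool. That left 1 call in the list without sow pool 3, soy pool 1 or soy pool 3. Pyruvate carboxylase PC (-0.32) and mitochondrial PCK2 (-0.12) were not called. Of 16 glycolytic and fructolytic genes, 3 rose and 1 fell, beside 6.64% of all genes called higher and 5.14% lower. Ketohexokinase (KHK), which starts fructose breakdown, rose from 0.706, 0.914 and 0.898 to 1.84, 1.5 and 1.65 (0.99 ± 0.13, adjusted p = 0.00504), and LDHB rose by 0.74 ± 0.12. HK1 fell by 0.79, a call lost without any single sow pool, soy pool 2 or soy pool 3 (adjusted p up to 0.0912). GAPDH rose by 0.61 by its representative probe set and by 0.47 by another, and fell by 1.01 by a further one.

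Amino acid enzymes were mostly not called. The list of the urea cycle and amino acid breakdown had 2 higher and 1 lower of 21, beside 11.8% of all genes called. Ornithine aminotransferase (OAT), which links ornithine to glutamate and proline, fell from 3.8, 4.17 and 8.13 to 1.03, 0.852 and 0.87 (-2.46 ± 0.26, adjusted p = 0.00218). CPS1, which starts the urea cycle, had overlapping groups at 1.67, 2.33 and 2.46 against 1.79, 2.06 and 1.64 (-0.22, adjusted p = 0.509). The cytosolic aminotransferase GOT1 rose by 0.72 ± 0.12. Of 14 amino acid response genes, targets of ATF4, 4 rose and 2 fell, beside 6.64% of all genes called higher and 5.14% lower. Without soy pool 1, 3 members of that list were called. Asparagine synthetase (ASNS) rose from 1.06, 0.686 and 0.885 to 2.83, 3.18 and 2.66 (1.74 ± 0.16, adjusted p = 0.00111). PSPH and PSAT1, enzymes of serine synthesis, rose by 1.27 and 1.04, while the first enzyme of that route, PHGDH, stood at -0.37 and was not called. The PSAT1 call was lost without sow pool 2 or any single soy pool (adjusted p up to 0.0718). CEBPB, a transcription factor, fell by 0.88 ± 0.14.

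Of 21 measured heat shock and chaperone genes, 12 were called higher, 0 lower and 9 were not called, with a median change of 0.448, beside 6.64% of all genes called higher. HSP70.2, an inducible HSP70, had ratios of 1.08, 1.2 and 0.686 on sow milk and of 5.96, 4.16 and 4.99 on soy formula (2.37 ± 0.22, adjusted p = 0.00111), and 2 further probe sets of it rose by 1.98 and 2.01. The HSP110 gene HSPH1 rose by 1.58, HSPA8 by 1.36, HSPA4 by 1.06 ± 0.11, the co-chaperone DNAJA1 by 0.89 and HSP90AA1 by 0.86 ± 0.1. HSPA8 had other probe sets at -0.12 and -0.11, not called, and HSPA4 had another that rose by 0.59 and a further one at -0.02. DNAJA1 and HSP90AA1 likewise had probe sets that were not called, at 0.35 and 0.09. HSP90AB1 (0.16), HSPA2 (0.01), the small heat shock proteins HSPB1 (-0.18) and HSPB8 (0.01) and the factor HSF1 (0.12) were not called. With a pool left out, 7 to 10 members were called, 7 without sow pool 1 or soy pool 1 and 8 without sow pool 3. The related list of endoplasmic reticulum stress and secretion had 1 call of 18 (CRELD2 higher by 0.92, lost in some analyses without 1 pool), and the chaperone HSPA5 stood at 0.35.

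Beside 6.64% of all genes called higher, the lists of fatty acid oxidation and of the respiratory chain held calls in that direction only. Of 24 genes of fatty acid oxidation, ketogenesis and other PPARA targets 5 were called, all higher, with a median change of 0.163. They were ACADL, DECR1, ACSL1, ECI2 and the lipase inhibitor ANGPTL4, counted above as well. The list held 3 calls without sow pool 1, sow pool 3 or soy pool 1. ACADL, the long-chain acyl-CoA dehydrogenase, rose from 0.91, 1.06 and 1.01 to 2.49, 3.05 and 2.75 (1.47 ± 0.1, adjusted p = 0.000335). DECR1, needed to oxidise unsaturated fatty acids, rose from 1.29, 1.38 and 1.28 to 2.2, 2.36 and 2.25 (0.78 ± 0.08, adjusted p = 0.00173). CPT1A, the gate of fatty acid entry into mitochondria, had overlapping groups (0.15, adjusted p = 0.603). Of 23 respiratory chain genes 7 were called, all higher, but only 2 to 5 with a pool left out, 2 without sow pool 1 and 3 without sow pool 2 or any single soy pool. Cytochrome c (CYCS) rose by 1.22 ± 0.1 and ATP5B, an ATP synthase subunit, by 0.49 ± 0.08. Cytosolic ribosomal proteins, 53 of them measured, had 1 call and a median change of -0.0519. That call was RPS18, higher by 0.5, while its other probe sets stood at 0.09 and -0.07, and it was lost with all 9 female pools (adjusted p = 0.0856). Probe sets other than the representative ones fell for RPL13A (-1.8), RPL32 (-1.12) and RPL23 (-1.05).

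**Figure D3:**
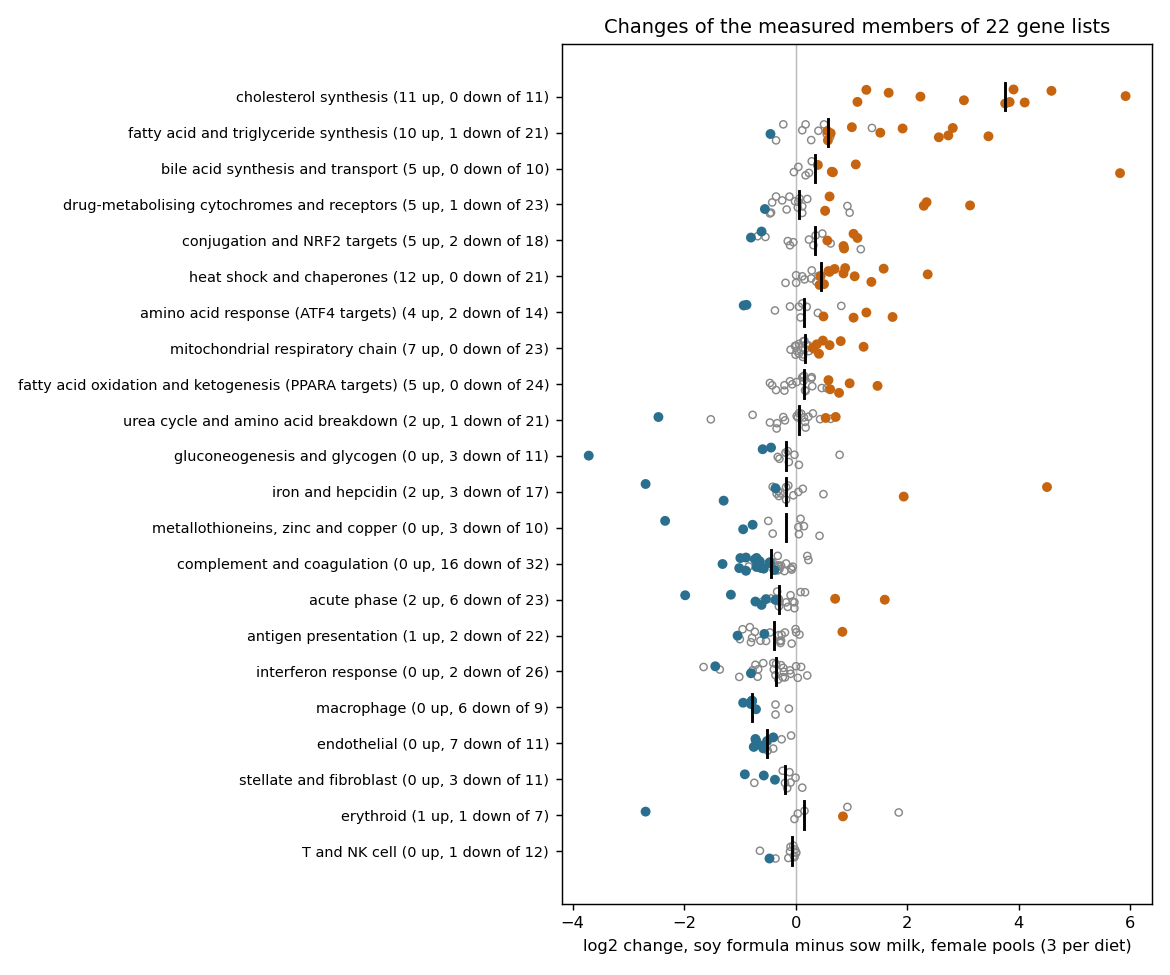
Log2 change on soy formula (horizontal axis, soy minus sow, females) of the measured members of 22 gene lists; each circle is a gene, filled when called (orange higher, blue lower), and the vertical bar is the list median. All 11 cholesterol synthesis genes lie to the right with a median of 3.76, and 30 of 32 complement and coagulation genes lie to the left of 0.

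Many transcripts of complement components, plasma proteins made mainly by hepatocytes, fell on soy formula. Of 32 measured genes of complement and coagulation 16 were called, all lower, against 5.14% of all genes, with a median change of -0.433, and 12 to 16 were called with a pool left out. C5, the source of the membrane attack complex, fell from 2.31, 2.35 and 2.35 to 1.02, 0.936 and 0.878 (-1.31 ± 0.08, adjusted p = 0.000245). Of the classical pathway, C4A fell by 1.01 ± 0.13, the protease genes C1R and C1S by 0.89 and 0.73, and their inhibitor SERPING1 by 0.57 ± 0.07. C3, on which all routes converge, fell from 1.71, 1.71 and 1.74 to 1.19, 0.995 and 1.01 (-0.7 ± 0.09, adjusted p = 0.00548). C8G fell by 0.7. Most coagulation genes were not called, among them F3 (-0.2), F5 (-0.07), F8 (-0.17) and the fibrinogen genes FGB (-0.05) and FGG (-0.29), while F12 fell by 0.66 and PROC by 0.47. F9 stood at -0.31 by its representative probe set, not called, but fell by 0.63 by a second probe set and by 0.74 by a further one. MBL2 (0.23) was not called. Kininogen KNG1 stood at 0.21, not called, with another probe set that rose by 0.32 and a further one at -0.49.

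Acute phase genes split: 6 of 23 fell and 2 rose, beside 5.14% of all genes called lower and 6.64% higher. In the list 4 were called without sow pool 1, sow pool 2 or soy pool 1, and 5 without soy pool 2. ITIH4, a plasma protein of the acute phase in pigs, fell from 2.84, 2.89 and 2.44 to 0.762, 0.72 and 0.592 (-1.98 ± 0.12, adjusted p = 0.000162), and the acid glycoprotein ORM1 fell by 1.16 ± 0.13, though other ORM1 probe sets stood at -0.03 and -0.16. The pentraxins went the other way. APCS, serum amyloid P, which is outside the list, rose 10.4-fold from 0.319, 0.413 and 0.567 to 3.95, 4.41 and 4.83 (3.38 ± 0.19, adjusted p = 0.000122). CRP rose from 0.32, 0.32 and 0.62 to 2.03, 0.957 and 0.919 (1.6 ± 0.35, adjusted p = 0.0326), a call lost without either of sow pools 1 and 2 or soy pools 1 and 2 (adjusted p up to 0.113). Haptoglobin (HP) fell by 0.36, a call lost whichever pool was left out (adjusted p 0.0695 to 0.124). It was also lost with array weights, with the pool number as a block and with trended variances. Albumin (ALB) stood at -0.02, not called. SAA2 stood at -0.3, not called, and fell by 0.95 by a second probe set. HRG, the other called rise in the list besides CRP, stood at 0.71 and at -0.5 by a second probe set.

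Of 14 genes of thyroid hormone and glucocorticoid handling, 1 rose and 3 fell, beside 6.64% of all genes called higher and 5.14% lower. In the list 2 were called without sow pool 1, sow pool 2, soy pool 1 or soy pool 2. SERPINA7, thyroxine-binding globulin, fell from 2.96, 2.4 and 2.69 to 0.982, 1.02 and 0.972 (-1.43 ± 0.1, adjusted p = 0.00028), and DIO2, which activates thyroid hormone, rose by 1.11 ± 0.18. The other binding proteins TTR (-0.17) and SERPINA6 (-0.38) were not called. The 15 genes of the growth hormone and IGF axis held 3 calls, all lower, beside 5.14% of all genes called lower. They were IGF2 (-0.92), IGFALS (-0.62) and IGFBP5 (-0.45), each lost without soy pool 2, when 1 list member was called. Other IGF2 probe sets stood between -1.91 and -0.02. Some of them were called lower, such as those at -1.91 and -1.56, and others were not, such as those at -0.19 and -0.02. A second IGFALS probe set stood at -0.01 and was not called. IGF1 had overlapping groups, 0.921, 0.838 and 1.37 against 1.51, 0.869 and 1.0 (0.11 ± 0.24, adjusted p = 0.867). IGFBP1, a binding protein induced by fasting, stood at 6.5, 6.35 and 5.33 on sow milk and 2.29, 0.358 and 3.07 on soy formula. The groups did not overlap but the change (-2.15 ± 0.69) missed the threshold (adjusted p = 0.111). A second IGFBP1 probe set stood at 0.18, not called. The imprinted gene PEG10 fell from 4.99, 3.86 and 2.64 to 0.784, 0.495 and 0.839 (-2.43 ± 0.26, adjusted p = 0.00239). Another PEG10 probe set fell by 1.9, called, and a further one stood at -0.03, not called. The fetal albumin homologue AFP stood at 2.47, 4.56 and 2.61 against 0.352, 2.2 and 1.55 (-1.54, adjusted p = 0.194).

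Calls in the immune lists were mostly lower, beside 5.14% of all genes called lower and 6.64% higher. In the interferon and antigen presentation lists the share called was near the 11.8% of all genes. The interferon response list had 2 calls of 26, both lower (CXCL9 and IRF8), and a median change of -0.357, which ranged from -0.585 to -0.0928 with a pool left out. The list held 1 call without sow pool 1, sow pool 3 or soy pool 2. Sow pool 3 stood apart in it: ISG15 was 1.43, 1.45 and 15.3 in the sow pools and 2.5, 0.686 and 0.598 in the soy pools (-1.65 ± 0.92, adjusted p = 0.373). Of 22 antigen presentation genes 2 fell and 1 rose; class II genes such as SLA-DRA (-1.0) and CD74 (-0.73) were not called, and the list held 9 calls without soy pool 1 and 1 without sow pool 1, sow pool 3 or soy pool 3. The rise of SLA-DMA (0.84) was met by -0.78 in a second probe set. Among 26 inflammatory genes 5 fell and 0 rose, with 3 called without sow pool 3, soy pool 1 or soy pool 3. The chemokine CXCL14 fell from 0.675, 0.97 and 0.678 to 0.195, 0.199 and 0.232 (-1.87 ± 0.15, adjusted p = 0.000726), the adhesion molecule ICAM1 by 0.91 ± 0.15, and the defensin DEFB1 by 1.7 ± 0.28 (another DEFB1 probe set stood at 0.14). TNF (-0.14), IL6 (-0.11) and IL1B (0.14) were not called.

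Most measured markers of macrophages and endothelial cells fell on soy formula. In bulk liver RNA, fewer cells of a type and less RNA per cell cannot be told apart. Of 9 measured macrophage markers 6 were called, all lower, beside 5.14% of all genes, with a median change of -0.777; the summed ratio of the list was 13.1 to 15.2 in the sow pools and 8.13 to 9.77 in the soy pools. The scavenger protein gene CD5L fell from 2.43, 2.55 and 1.84 to 1.32, 1.37 and 1.21 (-0.79 ± 0.13, adjusted p = 0.0122), and C1QA, made by macrophages, from 2.05, 1.8 and 1.72 to 1.26, 0.889 and 0.8 (-0.94 ± 0.17, adjusted p = 0.0154). CD163 (-0.36) and MARCO (-0.12) were not called. Between 2 and 5 macrophage markers were called with a pool left out, 2 of them without sow pool 1, sow pool 2 or soy pool 2, 3 without sow pool 3 and 4 without soy pool 3.

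Endothelial markers had 7 calls of 11, all lower, beside 5.14% of all genes, with a median of -0.511 and summed ratios of 11.3 to 12.6 on sow milk and 7.53 to 8.45 on soy formula. VE-cadherin (CDH5) fell from 2.11, 1.93 and 1.82 to 1.3, 1.12 and 1.17 (-0.71 ± 0.1, adjusted p = 0.00598), the TGF-beta co-receptor ENG fell by 0.72 ± 0.1 and PECAM1 by 0.61 ± 0.1. With a pool left out 4 to 6 were called, 4 without sow pool 1. Caveolin CAV1, abundant in endothelium and outside the list, fell by 1.56 ± 0.15. The stellate and fibroblast list had 3 calls of 11 (RGS5, VIM and PDGFRB, all lower), beside 5.14% of all genes called lower. In that list 0 to 2 were called when a pool was left out, 0 without sow pool 2 or any single soy pool and 1 without sow pool 3. The hepatocyte list had 1 call of 11, a rise of the transcription factor HNF4A by 1.18, lost without sow pool 2 (adjusted p = 0.0512) or soy pool 2 (0.0549). Of 7 erythroid markers HBB rose from 0.385, 0.522 and 0.478 to 0.834, 0.777 and 0.877 (0.85 ± 0.12, adjusted p = 0.00727), TFRC fell as above, and the other 5 were not called, among them AHSP (1.85) and ALAS2 (0.93), both highest in soy pool 3. The summed erythroid ratio was 7.13 to 10.2 on sow milk and 3.47 to 9.45 on soy formula. Of the T and NK cell list CD4 (-0.48) was called and the other 11 genes were not. The CD4 call was lost without sow pool 1, sow pool 2 or any single soy pool, leaving 0 calls in the list, and a second CD4 probe set stood at -0.03. In the lists of B cells (3 genes), neutrophils (8), adipocytes (4) and muscle (7) limma called 0; 1 of these 22 genes, in the neutrophil list, had an unadjusted p under 0.05.

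**Figure D4:**
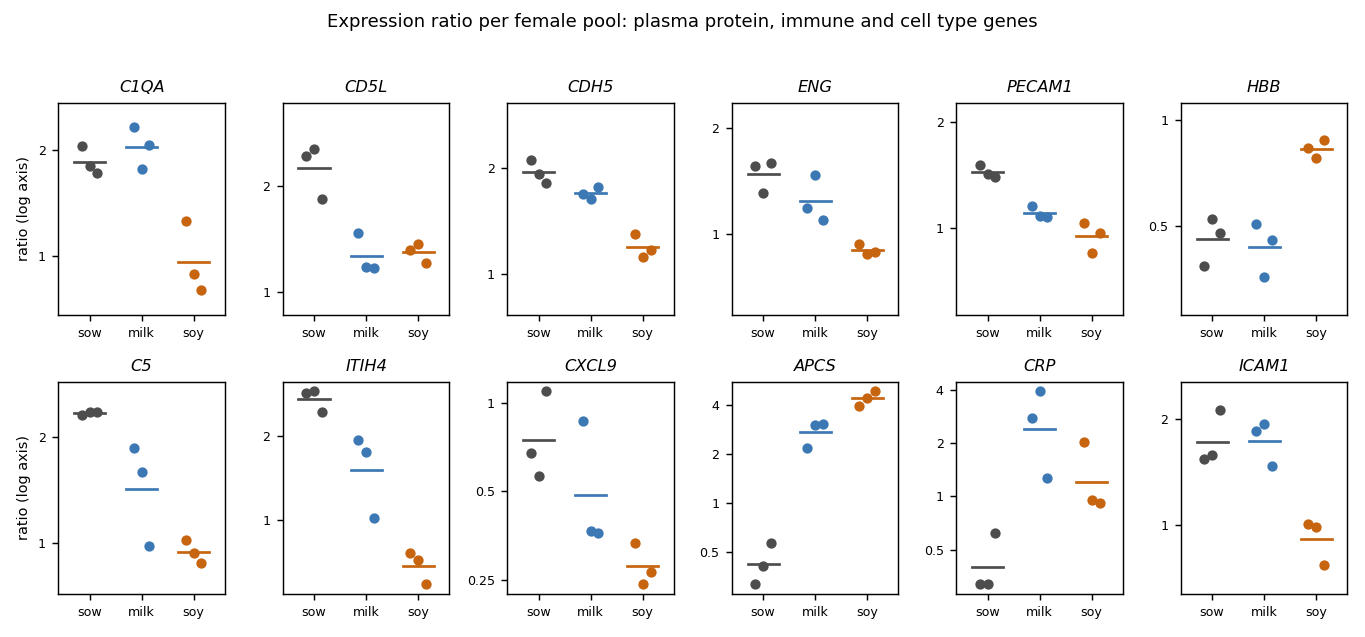
Expression ratio (log axis, no unit) of 12 plasma protein, immune and cell type genes in the female pools on sow milk, milk formula and soy formula; each point is a pool (3 per diet) and each line the mean of the log2 ratios. Sow and soy pools do not overlap in any panel, with APCS at 0.319 to 0.567 on sow milk and 3.95 to 4.83 on soy formula, and C5 at 2.31 to 2.35 and 0.878 to 1.02.

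Other large changes fell outside the lists. TSKU, a secreted liver protein, rose from 0.515, 0.48 and 0.438 to 3.33, 3.33 and 4.28 (2.92 ± 0.12, adjusted p = 3.91e-05). The calcium-binding S100A1 fell by 1.94 ± 0.1, the membrane protein TM4SF1 by 2.11 ± 0.27, ENC1 by 1.71 ± 0.23 and the mitochondrial carrier SLC25A48 by 1.68 ± 0.2. TMEM158 (-1.8) and the growth arrest gene BTG2 (-1.67) were also among the 15 largest falls. Of the 30 largest changes, only these lost their call in any of the 15 alternative analyses, which did not include the 1.5-fold limit or the unmoderated test. TMEM158 had adjusted p up to 0.085, and BTG2 had 0.0514 in the fit to all 9 female pools. The folate receptor FOLR1 fell by 1.23 ± 0.19 (another FOLR1 probe set was not called, at -0.08) and the clock gene ARNTL by 0.68 ± 0.1. Of the 1697 called probe sets 1026 (60.5%) carry 1 gene name; the largest unnamed changes were rises of 5.73 and 5.23 and falls of 2.28 and 2.07.

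The milk formula gives a second reference in females. Its pools tested against the soy pools ask which differences belonged to the kind of formula: 338 probe sets were called (1.41%), 224 of them higher on soy and 114 lower. That count rested on single pools, with 3 calls without milk formula pool 2, 10 without soy pool 2, 30 without soy pool 3, 96 without milk formula pool 1 and 137 without soy pool 1. CYP7A1 had ratios of 0.65, 1.38 and 0.279 on milk formula, all below the lowest soy pool at 9.81, and was higher on soy by 4.31 (adjusted p = 0.0207, up to 0.0732 with a pool left out). CYP3A46, at 1.61, 1.45 and 1.53 on milk formula, was higher on soy by 1.62 (adjusted p = 0.00407) and stayed past the threshold with any pool left out (up to 0.0464).

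Hepcidin and metallothionein were lower on soy than on milk formula. HAMP stood at 1.98, 2.15 and 2.18 on milk formula, above all soy pools, a difference of -1.16 (adjusted p = 0.0115, up to 0.063 with a pool left out). ID1 was at 3.1, 3.2 and 3.18 there, a difference of -1.02 (adjusted p = 0.0115, up to 0.0516). MT1A was at 2.18, 2.46 and 2.21, a difference of -1.99 (adjusted p = 0.00407, up to 0.0501). TFRC did not separate the formulas, with 0.917, 0.935 and 0.858 on milk formula (0.1, adjusted p = 0.855). Urea cycle and amino acid genes were 8 of 21 higher on soy than on milk formula and 0 lower, beside 1.41% of all probe sets called. Against sow milk, the median change of that list was -0.53 on milk formula (3 called) and 0.058 on soy formula. CPS1, at 1.05, 0.812 and 0.654 on milk formula, was higher on soy by 1.15 (adjusted p = 0.0303, up to 0.102 with a pool left out). ARG1, arginase, was higher on soy than on milk formula by 1.59 (adjusted p = 0.0239, up to 0.0865). Macrophage markers were 5 of 9 lower on soy than on milk formula, beside the same 1.41%, with C1QA lower by 1.08 (adjusted p = 0.035, up to 0.117). For cholesterol synthesis 4 of 11 were higher on soy and 0 lower, also beside 1.41% of all probe sets. CYP51 exceeded milk formula by 0.75 (adjusted p = 0.0383, up to 0.125 with a pool left out). All these list counts come from a comparison that held only 3 calls without milk formula pool 2 and 10 without soy pool 2.

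Against sow milk, 120 probe sets were called on milk formula (0.501%); this comparison shares the 3 sow pools with that of soy formula, so the values are given side by side and no overlap is read from them. On milk formula HMGCS1 differed from sow milk by 4.26, SQLE by 3.77, SCD by 2.81, HAMP by 5.68, TFRC by -2.8 and APCS by 2.69, each called; on soy formula the same genes changed by 5.92, 4.59, 3.46, 4.51, -2.69 and 3.38. CYP7A1 (1.51, adjusted p = 0.293) and PCK1 (-1.3, adjusted p = 0.336) were not called on milk formula. The median change of the complement list was -0.249 on milk formula and -0.433 on soy formula, and that of the macrophage list -0.00036 and -0.777.

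In males, fitted in the same way, 54 probe sets were called (0.226%). The male values of most large changes had the same sign. HAMP rose by 4.78, HMGCS1 by 4.39, SCD by 3.54 and FDPS by 3.13, and TFRC fell by 2.38, PEG10 by 2.67 and ITIH4 by 1.86, all called in males. CYP7A1 stood at 2.62 (adjusted p = 0.192), PCK1 at -2.21 (adjusted p = 0.182) and OAT at -0.6 (adjusted p = 0.672). Whether the change differed between the sexes was tested over all 12 pools: 2 of 23935 probe sets were called (0.00836%), and 1857 had an unadjusted p under 0.05. None of the 30 largest changes was among the calls. In simulated data with 200 changed probe sets, this test recovered 0% of 1.5-fold, 20% of 2-fold and 92% of 4-fold differences. The small count therefore does not show that the sexes changed alike. For CYP7A1 the female change exceeded the male by 3.21 (adjusted p = 0.29), for SQLE by 2.57 (0.145) and for OAT it was lower by 1.86 (0.21), in the same limma test.

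**Figure D5:**
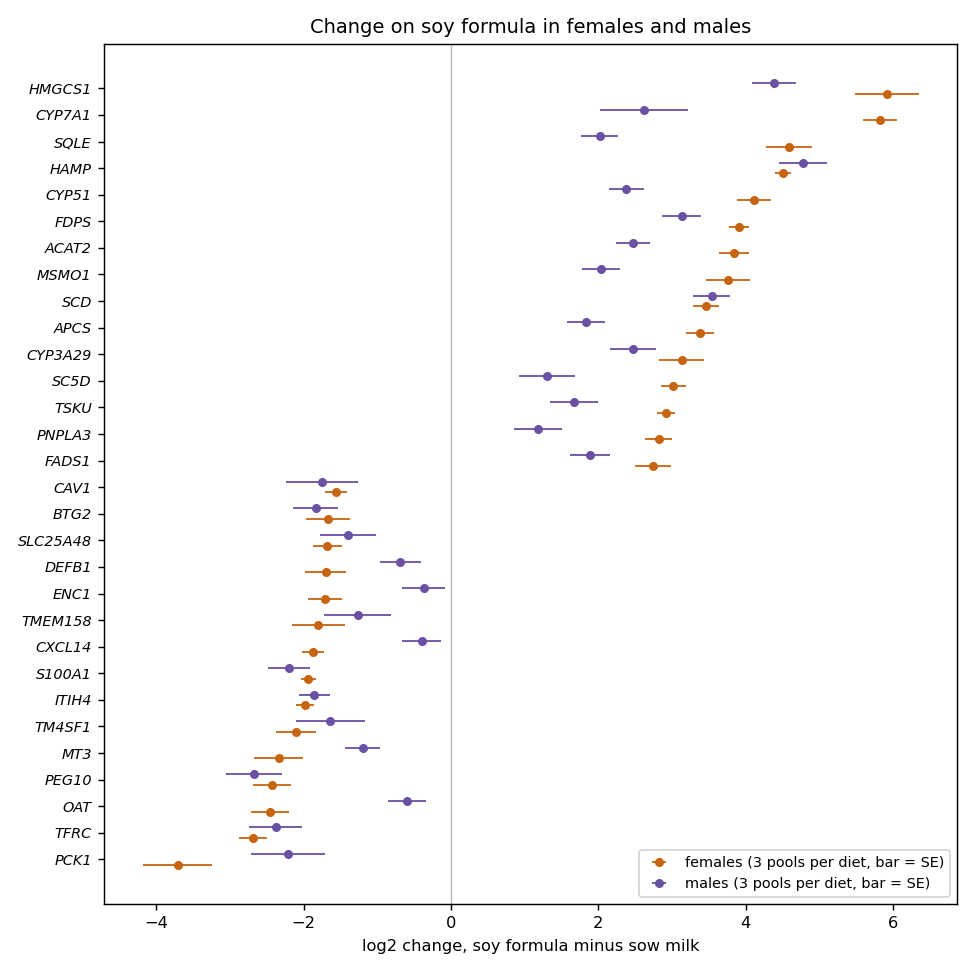
Log2 change on soy formula (horizontal axis, soy minus sow) with its standard error for the 15 largest rises and 15 largest falls in females, beside the same genes in males (3 pools per diet and sex). HAMP lies at 4.51 in females and 4.78 in males, and CYP7A1 at 5.82 and 2.62.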

How the data were processed

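Liver RNA pools were measured on Affymetrix porcine arrays. The deposited values are linear expression ratios per probe set and array. Per the submitters' processing notes GCOS and RMA were used; no version is named there, and what the ratios were divided by is not stated. In the table itself the median across arrays equalled 1, to within 0.002, for 5271 of 24123 probe sets, and exceeded 1.002 for 0, so a probe set's divisor is shared by all arrays and cancels in changes. All columns matched samples.

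Here log2 of the ratios was taken, 188 control probe sets were set aside and 23935 tested with limma 3.58.1 (R 4.3.3; lmFit and eBayes, 1 mean per diet, only the 6 arrays compared, Benjamini-Hochberg, threshold 0.05, two-sided). The sexes were compared by an interaction over 12 arrays. By the platform's annotation, 10069 probe sets name 1 gene, 198 several and 13668 none. The 46 gene lists (652 of 1017 genes measured) are described by counts and medians. The text names the 15 largest rises and the 15 largest falls, up to 6 called members of each list, 33 fixed genes (25 measured; the others are not analysed here), those called between sexes, and 4 unnamed probe sets; uncalled list members, further called members (FDFT1, HSD17B7, TM7SF2, NSDHL, AGPAT1, SERPING1, C3, C8G, F12, PROC), other probe sets of RPL13A, RPL32 and RPL23, and ISG15 were chosen after their values were seen. Members and lists were chosen with earlier results of these data known. Alternatives were other variance models, normalizations, a pseudocount of 0.1, array weights, the pool number as a block, all 9 female pools, other probe set choices, a 1.5-fold limit, an unmoderated test, no dim probe sets (lowest 40%), and each pool left out. Residual correlations of same-numbered pools were -0.101, 0.0346 and -0.0399, and up to 0.147 for pools of different numbers. With 3 pools per diet these values cannot exclude a pairing by pool number. The model was tested on simulated data. Tables were made with pandas 2.3.3 and numpy 2.4.6 under Python 3.11.15, and figures with matplotlib 3.10.9. The number of arrays limits precision.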

Additional observations from a re-analysis of the deposited data

Results flagged for a closer look

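The change on soy formula differed between females and males in the interaction test over 12 pools for 2 probe sets. SLC17A1 changed by 2.05 in females (0.177, 0.254 and 0.172 on sow milk, 0.947, 0.703 and 0.821 on soy formula) and by -0.05 in males, a difference of 2.09 (adjusted p = 0.0373, limma). A probe set of PRELID3B changed by 1.36 in females and by -0.28 in males, a difference of 1.63 (adjusted p = 0.0373), whereas the representative probe set of that gene changed by 0.31 in females without a call. The count rested on pools of both sexes: 0 probe sets were called without female sow pool 1, any single female soy pool, male sow pool 2, male sow pool 3, male soy pool 1 or male soy pool 2. It was 1 without female sow pool 2 or 3, and 8 without male soy pool 3.

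For HBB and HSP90AA1 each soy pool lay above the sow mean in females and below it in males. HBB changed by 0.85 in females and by -0.23 in males, and HSP90AA1 by 0.86 and -0.25. Neither difference passed the interaction test (adjusted p = 0.342 and 0.301).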

How the results depend on the processing

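The count of 1697 probe sets for soy formula against sow milk in females ranged from 1000 to 1190 with 1 pool left out. It was 954 with 1 probe set per gene, 93 against a 1.5-fold limit and 93 with an unmoderated test, and within 1.5 times of 1697 under the other alternatives (1267 with the pool number as a replicate block, 1760 without the dimmest probe sets). Soy against milk formula gave 338 calls, and 3 to 288 with a pool left out. Milk formula against sow milk gave 120, 73 with the replicate block, and 46 to 139 with a pool left out. Males gave 54, and 14 to 38 with a pool left out. The difference between sexes gave 2 calls, 1 after quantile normalization, 0 with array weights by sex, 0 with the replicate block, 0 with trended variances, and 0 to 8 with a pool left out. Among named genes without a call the direction turned for CYP8B1 (0.02 without soy pool 1, range -0.11 to 0.02 with a pool left out), ESR1 (-0.05 without sow pool 3, range -0.05 to 0.16), IGF1 (-0.03 without sow pool 2, -0.13 without soy pool 1, range -0.13 to 0.32) and INSIG1 (-0.15 without sow pool 1, range -0.15 to 1.06). Of 156 called features, 27 were not past the threshold with the replicate block and 36 to 50 with a pool left out; no called one changed direction. The cause of these losses was not tested.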
